A study of Mus musculus with 3 samples.

Results

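Blood endothelial cells (BEC) of the mouse mesenteric lymph node were set against the other populations sorted from the same organ, fibroblastic reticular cells (FRC) and lymphatic endothelial cells (LEC). For each gene the BEC level was compared with both others at once, so that a gene counted only where BEC stood apart from FRC and from LEC on the same side. Of 19137 genes compared, 7338 were above both and 6231 below both, 13569 in all, and in 5568 the BEC level lay between the others. At a difference of at least 4-fold from the nearer of the others, 408 genes (2.13% of those compared) were higher in BEC and 313 (1.64%) were lower, 721 genes in all.

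The cells came from wild-type C57BL/6NCrl mice, without any treatment named in the labels. After collagenase digestion and magnetic removal of CD45+ cells, stromal cells negative for CD45 and CD24 were sorted by gp38 and CD31: BEC were gp38- CD31+, LEC were gp38+ CD31+ and FRC were gp38+ CD31-. Each population was measured on 1 single-colour array, 3 arrays in all, and neither the age of the mice nor the number of mice and sorts behind each RNA is given in the labels. No difference has a replicate check and no test between populations was made. A level is the log2 signal minus that array's 75th percentile, always given in the order FRC, LEC and BEC. A fold is the ratio of the BEC signal to that of the nearer of the other populations for the same probe.

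Blood endothelium lines arteries, capillaries and veins, and controls what passes from blood to tissue, the tone of the vessel and the clotting of blood. Its segments are set apart by their own gene programmes: Notch signalling and SOX17 mark arteries, lipid and water transport proteins mark capillaries, and adhesion and chemokine-handling proteins mark venules. Lymph nodes hold a further segment, the high endothelial venules, whose lining displays sulphated and fucosylated sugars that catch L-selectin on passing lymphocytes.

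The arrays' 75th percentiles of signal were 387 (FRC), 268 (LEC) and 361 (BEC), and from 59.7% to 60.5% of probes were well above background. A total of 15594 genes had their brightest probe, the one read here, well above background on every array. The lowest such signal stood at -4.29, -4.20 and -4.38 on the log2 scale, and levels under it have no order. A dim signal was raised to this floor unless the probe's own value was above it, and a fold that rests on such a signal is written as "at least" its size. Spots of one probe repeated on an array had a median log2 SD of 0.0551 to 0.0577, a measure of spot error alone.

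All 4 markers named for blood endothelium were highest on the BEC array, 3 of them past 4-fold. Flt1, a VEGF receptor, stood at -1.13, 2.47 and 6.36, 14.9-fold above LEC. Its probe lies on chromosome 5 at 148373791 to 148373850 of build mm9, and 2 other probes of the gene gave differences of 0.03 to 4.27. Emcn, the endothelial sialomucin endomucin, stood at -1.42, 3.86 and 7.08, 9.30-fold above LEC. Sox17, the arterial transcription factor, was at -3.47, -0.14 and 4.84, 31.6-fold above LEC, with its probe on chromosome 1 at 4481503 to 4481562. Glycam1, the mucin of high endothelial venules that carries L-selectin ligands, was at 2.87, 7.78 and 9.49, 3.28-fold above LEC and so not past 4-fold.

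The genes behind the gates were read in the same way. Pecam1, which encodes CD31, was at -4.05, 2.33 and 4.02, 3.23-fold above LEC, the other CD31+ population. Pdpn, which encodes gp38, was at -0.83, -1.19 and -3.81, 6.15-fold below LEC, a call lost under normexp background correction (-1.19). Ptprc, which encodes CD45, was at -2.36, -1.57 and 0.23, 3.49-fold above LEC, and Cd24a at 1.61, 3.40 and 3.89, 1.40-fold above LEC. The 2 genes whose products were gated out were thus above both others in BEC by less than 4-fold. In sorted bulk RNA, fewer cells of a type and less RNA per cell cannot be told apart.

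**Figure D1:**
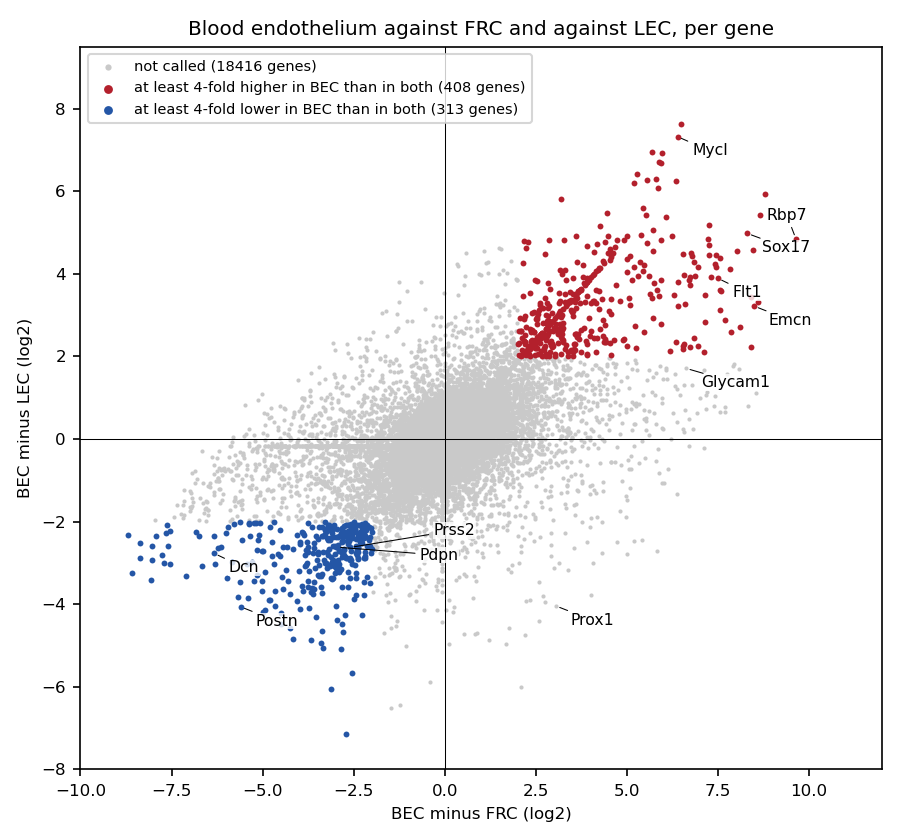
Each point is 1 of the 19137 genes compared, with the log2 difference of BEC from FRC on the x axis and from LEC on the y axis. The 408 genes at least 4-fold above both (red) fill the upper right and the 313 at least 4-fold below both (blue) the lower left, and the straight diagonal holds genes whose FRC and LEC signals were both set at the floor.

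The nearer population was LEC for 310 of the 408 higher genes and FRC for 98. FRC and LEC lay within 4-fold of each other for 331 of them, LEC was at least 4-fold above FRC for 72, and FRC at least 4-fold above LEC for 5. Of the 313 lower genes, LEC was nearer for 211 and FRC for 102, and FRC and LEC lay within 4-fold of each other for 260. The size ran further upward than downward: 71 of the higher genes and 8 of the lower ones were past 16-fold. The filters differ, as a higher call needed BEC well above background and a lower call both FRC and LEC. A total of 81 higher and 60 lower genes rest on a lower bound. For 103 higher genes another probe was well above background, and all such probes lay on the same side for 83 and past 4-fold for 44. For the lower genes these counts were 127, 101 and 33. At the threshold the nearest values were continuous: Hspg2, Dgkg and Ephx3 were just inside at 2.003, 2.002 and 2.001, and Mbl2, Serpina1b and Rbmxl2 just outside at 1.999, 1.992 and 1.989. On the lower side Gxylt2, Kctd1 and Lingo1 were inside at -2.013, -2.011 and -2.003, and Rbfox2, Frmd6 and Bace1 outside at -1.999, -1.997 and -1.995.

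Capillary genes made up the list with the largest number of calls per member among the vessel segments. The vessel lists were chosen with earlier results of these data known, which may have shaped this ranking. In BEC, 13 of the 23 members compared were past 4-fold above both others, none was lower, and 20 were above both at any size, with a median difference of 2.44 from the nearer population. Over all genes compared that median was 0, and 2.13% were called higher and 1.64% lower. Under normexp background correction 12 of the 23 were past 4-fold.

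Rgcc, a regulator of the cell cycle named for its response to complement, stood at 0.29, 2.66 and 7.52, 29.0-fold above LEC. Rbp7, a retinol-binding protein of capillary endothelium, was at -3.05, 1.73 and 6.58, 28.9-fold above LEC, and its other probe gave the same difference of 4.86. Car4, a membrane-anchored carbonic anhydrase of the capillary surface, was not well above background in FRC and stood at -0.41 in LEC and 4.18 in BEC, 24.0-fold higher. All 3 were thus also higher in LEC than in FRC, with BEC a further step above. Aplnr, the apelin receptor, was at -3.40, -0.24 and 4.14, 20.9-fold above LEC. The aquaporins Aqp1 and Aqp7, channels for water and for water with glycerol, were 13.2-fold and 15.6-fold above LEC. Tcf15, a transcription factor tied to fatty acid uptake by endothelium, was at -3.15, 0.24 and 4.16, 15.2-fold above LEC.

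The other capillary genes past 4-fold were smaller in size. Gpihbp1, which carries lipoprotein lipase to the capillary lumen, stood at -0.33, 4.10 and 7.22, 8.70-fold above LEC. Cd200, a ligand that restrains myeloid cells, was at 1.32, 1.56 and 4.36, 6.95-fold above LEC. Kcne3, a potassium channel subunit, was 6.35-fold, Tmem88 5.43-fold and Cd300lg, a mucin-like receptor, 4.40-fold higher. The last of these fell short of 4-fold after quantile normalisation (1.97). Fabp5, a fatty acid-binding protein, was dim in FRC and LEC, and its BEC signal was at least 5.77-fold above them, a call lost under normexp (1.11). Kdr, the main VEGF receptor of endothelium, was at 0.40, 6.72 and 6.18 and so not apart from LEC, and Cd36, a fatty acid translocase, stood at -0.18, 6.20 and 6.38.

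**Figure D2:**
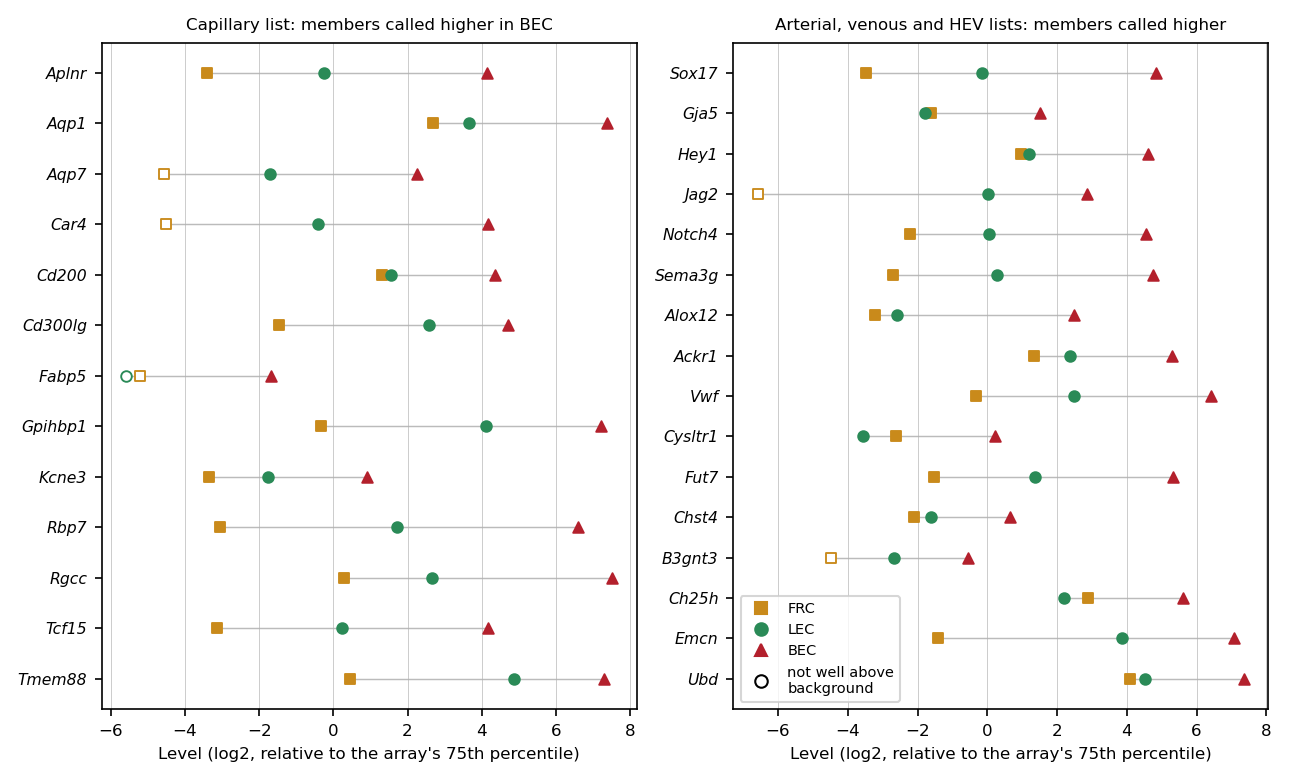
Log2 level relative to the array's 75th percentile on the FRC, LEC and BEC arrays, for the 13 capillary genes and the 16 arterial, venous and high endothelial venule genes called higher in BEC; an open symbol means not well above background. BEC is the rightmost point of each row, with LEC the next for most genes.

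Arterial genes were mixed. Of 24 compared, 7 were at least 4-fold higher than in both others and none lower, 12 were above both, and the median difference was 0.18. Beside Sox17 these were Alox12, Sema3g and Gja5, and Hey1, Jag2 and Notch4, which the Notch list below also holds. Alox12, a lipoxygenase, was at -3.21, -2.58 and 2.50 (33.7-fold above LEC). Sema3g, a secreted semaphorin of arterial endothelium, was at -2.70, 0.29 and 4.75 (22.0-fold). Gja5, a gap junction protein of arteries, stood at -1.62, -1.78 and 1.52, 8.79-fold above FRC, but its other probe gave -0.14 and the median of its probes 1.50. Efnb2, the arterial ephrin, was at -1.29, 3.86 and 2.71, and Gja4 at 3.77, 5.74 and 5.43, both below LEC. Bmx, a kinase of arterial endothelium, was at -0.25 in LEC and -1.38 in BEC.

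Notch signalling, which sets arterial fate, had 5 of 22 genes higher, 1 lower and a median of 0.18. Notch4, the endothelial Notch receptor, stood at -2.21, 0.04 and 4.55, 22.7-fold above LEC. The ligand gene Jag2 was not well above background in FRC and stood at 0.03 in LEC and 2.86 in BEC, 7.10-fold higher. Mfng, a fringe enzyme that modifies Notch receptors, was at -3.67, -0.82 and 3.03, 14.5-fold above LEC. The Notch target Hey1, a transcriptional repressor, stood at 0.98, 1.19 and 4.60, 10.6-fold above LEC, and the target Nrarp was 4.61-fold higher, past 4-fold only without normexp. Receptors and ligands did not all go together: Notch1 was at 0.33, 2.56 and 1.99 and Jag1 at 1.18, 2.39 and 2.17, while Dll4 at 0.40, 1.80 and 2.81 was 2.01-fold above LEC. Notch2 was lower in BEC, at 2.36, 2.68 and -0.24, 6.05-fold below FRC, with other probes from -2.18 to 0.04.

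Of 17 venous and venular genes, 3 were at least 4-fold higher and none lower (median 0.84). Ackr1, the atypical chemokine receptor of venules, stood at 1.34, 2.37 and 5.30, 7.65-fold above LEC, with 2.81 from its other probe. Vwf, von Willebrand factor, was at -0.32, 2.49 and 6.41, 15.1-fold above LEC. Cysltr1, a leukotriene receptor, was at -2.62, -3.58 and 0.21, 7.09-fold above FRC, a call lost under normexp (1.97). The selectin genes Selp and Sele were 3.88-fold and 3.61-fold above LEC. Nr2f2, the venous and lymphatic transcription factor, was at 4.30, 4.96 and 4.22 and did not set BEC apart.

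High endothelial venule genes had 7 of 29 members at least 4-fold higher and none lower, with 20 above both (median 0.52). Fut7, the fucosyltransferase that finishes L-selectin ligands, stood at -1.52, 1.38 and 5.34, 15.5-fold above LEC. Its probe lies on chromosome 2 at 25281802 to 25281861 of mm9. Chst4, the sulphotransferase of these ligands, was at -2.11, -1.61 and 0.65, 4.80-fold above LEC, and B3gnt3, which extends their core sugar, was 4.33-fold above LEC. Both fell short of 4-fold under normexp (1.71 and 1.37). Ch25h, a hydroxylase that makes an oxysterol, stood at 2.88, 2.21 and 5.62, 6.67-fold above FRC, and Ubd, a ubiquitin-like protein, at 4.10, 4.52 and 7.34, 7.07-fold above LEC. Other enzymes of the pathway were within 4-fold of LEC: St3gal6 was 2.39-fold, Chst2 2.36-fold and Gcnt1 1.20-fold higher. Madcam1, the addressin of mucosal lymph nodes, was at 2.39, 3.32 and 4.43, 2.16-fold above LEC. Ccl21a, the CCR7 ligand displayed by these venules, was at 8.66, 6.02 and 8.82 and so level with FRC.

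The promoters of the called genes were read for short strings to see what they share beyond their levels. Windows from 250 bases before to 50 after the start, from RefSeq on GRCm38.p6, were found for 12223 of the compared genes, 238 of the higher and 218 of the lower. The string ACAGGAA, a form bound by ETS factors, was searched on either strand, and a gene counted once if any of its promoters held it. It was found for 8.98% of all these genes, 17.6% of the higher genes and 5.05% of the lower genes. Promoters of higher genes also held fewer CpG pairs, with a median of 10.8 against 18.5 over all and 15 for lower genes. Among genes with promoters below the overall CpG median, ACAGGAA was found for 12.1% of all 6111, 37 of 161 higher genes (23.0%) and 8 of 129 lower genes (6.20%). Among those at or above it the shares were 5.91% of 6112, 5 of 77 (6.49%) and 3 of 89 (3.37%). A match is a string of letters and not a bound site. The 250 bases before the start are shown 5′ to 3′ on the gene's strand for 4 genes from the vessel groups above that carry the string, for Exoc3l2, one of the largest differences, which carries it too, and for Rgcc, which does not; capitals mark ACAGGAA or its reverse complement TTCCTGT. Emcn (chr3:137340828-137341077, plus strand) has it at -173 and -67, Ackr1 (chr1:173333504-173333753, minus) and Ch25h (chr19:34475149-34475398, minus) at -134, Exoc3l2 (chr7:19463037-19463286, plus) at -52 and Notch4 (chr17:34564045-34564294, plus) at -171, counted to the first base of the string. The promoter of Rgcc (chr14:79301636-79301885, minus) has no match and 26 CpG pairs in its whole window, against 2 to 10 in the others.
Emcn: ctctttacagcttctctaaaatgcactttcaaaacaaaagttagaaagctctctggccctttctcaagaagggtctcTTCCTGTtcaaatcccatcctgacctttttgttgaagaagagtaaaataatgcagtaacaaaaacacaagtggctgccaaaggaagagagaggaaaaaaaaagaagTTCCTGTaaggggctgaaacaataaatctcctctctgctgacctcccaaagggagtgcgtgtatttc
Ackr1: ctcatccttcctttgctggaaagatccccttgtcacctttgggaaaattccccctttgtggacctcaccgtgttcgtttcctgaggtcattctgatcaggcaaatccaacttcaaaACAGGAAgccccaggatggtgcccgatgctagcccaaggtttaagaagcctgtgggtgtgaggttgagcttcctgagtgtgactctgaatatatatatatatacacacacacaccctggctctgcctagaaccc
Ch25h: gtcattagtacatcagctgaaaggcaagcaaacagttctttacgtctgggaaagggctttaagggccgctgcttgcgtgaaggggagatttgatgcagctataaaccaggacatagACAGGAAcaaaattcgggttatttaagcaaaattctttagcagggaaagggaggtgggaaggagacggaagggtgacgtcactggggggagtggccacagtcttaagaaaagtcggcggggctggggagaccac
Exoc3l2: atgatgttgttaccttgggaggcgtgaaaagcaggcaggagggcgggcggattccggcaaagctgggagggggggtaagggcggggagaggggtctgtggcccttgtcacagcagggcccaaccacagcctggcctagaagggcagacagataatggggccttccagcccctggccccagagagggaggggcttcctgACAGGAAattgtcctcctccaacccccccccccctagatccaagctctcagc
Notch4: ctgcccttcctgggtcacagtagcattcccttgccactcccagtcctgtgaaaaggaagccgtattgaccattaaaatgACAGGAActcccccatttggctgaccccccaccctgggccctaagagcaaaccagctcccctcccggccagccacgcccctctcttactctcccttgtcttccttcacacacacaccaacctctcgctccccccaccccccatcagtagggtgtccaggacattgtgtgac
Rgcc: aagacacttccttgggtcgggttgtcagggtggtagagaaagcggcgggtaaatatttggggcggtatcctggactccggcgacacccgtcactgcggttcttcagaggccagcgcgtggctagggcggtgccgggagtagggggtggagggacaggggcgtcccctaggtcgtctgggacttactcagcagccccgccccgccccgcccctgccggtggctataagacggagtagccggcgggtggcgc

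In all 16 strings were searched, on both strands. The shares of all genes with a promoter and of higher genes follow, each gene counted once. The ETS-type strings overlap: ACAGGAAG was found for 3.91% of all genes and 7.98% of higher ones, AACAGGAA for 2.81% and 6.30%, and the shorter AGGAAG for 37.3% and 47.9%. ETS-type strings that contain a CpG were rarer near higher genes, CCGGAAG at 16.8% over all and 5.04% of higher genes and CGGAAGT at 12.4% and 0.840%. Of the SOX-type strings, ACAATG was found for 9.90% of all genes and 11.3% of higher ones, its longer form AACAATG for 2.83% and 3.78%, and ACAAAG for 17.4% and 18.5%. The forkhead-type TGTTTAC was in 3.39% and 4.20%, the GATA-type AGATAA in 9.06% and 8.40%, the E-box CACGTG in 10.6% and 8.40% and the TATA-type TATAAA in 11.2% and 13.9%. TGGGAA, a string of the Notch factor RBPJ, was in 27.2% and 28.2%. A 10-letter NF-kB string was found for 0.237% of all genes and 0.840% of higher ones, and a 10-letter MEF2 string for 0.147% and for no higher gene.

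Transcription factor genes with roles in endothelium had 6 of 40 members at least 4-fold higher and 1 lower (median 0.25). Tbx3, a T-box factor, stood at -0.36, -0.18 and 3.22, 10.5-fold above LEC. Id1, a target of BMP signalling, was at 3.41, 1.67 and 6.15, 6.69-fold above FRC, with 2.75 from its other probe. Hlx, a homeobox gene, was at 1.99 in BEC and 4.10-fold above FRC, just past the threshold and short of it under normexp and quantile normalisation. The factors shared by both endothelia did not set BEC apart by 4-fold: Sox18 was 2.42-fold, Sox7 3.00-fold, Tal1 2.33-fold and Fli1 2.09-fold above LEC, and Erg stood at -1.07 in LEC and -1.38 in BEC. The lower member was Gata6, at 4.61, 4.89 and 1.50, 8.63-fold below FRC.

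**Figure D3:**
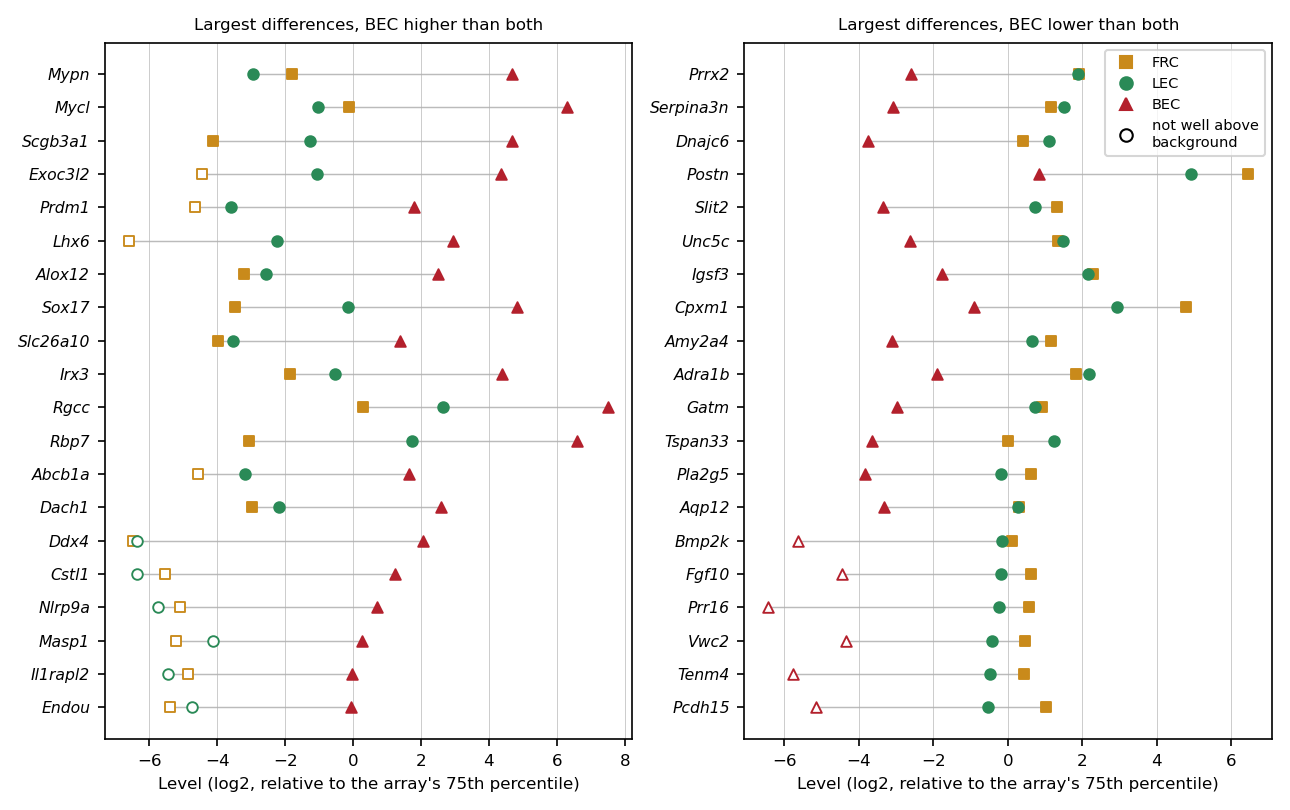
Log2 level relative to the array's 75th percentile on the 3 arrays for the 14 largest measured differences and the 6 largest lower bounds in each direction, with open symbols for signals not well above background. Mypn, Mycl and Scgb3a1 head the higher genes and Prrx2, Serpina3n and Dnajc6 the lower ones.

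Of the 14 largest measured differences on the higher side, Sox17, Alox12, Rgcc and Rbp7 belong to the vessel lists above. Mypn, a sarcomere protein gene, stood at -1.81, -2.96 and 4.67, 89.6-fold above FRC, but its other probe gave -0.31. Mycl, a MYC-family transcription factor, was at -0.11, -1.04 and 6.28, 83.9-fold above FRC, through a single probe on chromosome 4 at 122679548 to 122679607 of mm9. Scgb3a1, a secretoglobin, was at -4.11, -1.26 and 4.68, 61.6-fold above LEC. Exoc3l2, an exocyst-related gene, was not well above background in FRC, -1.06 in LEC and 4.36 in BEC, 42.8-fold higher. Its promoter is among those printed.

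Several of the largest were transcription factor genes. Prdm1, a repressor best known from plasma cells, stood at -3.59 in LEC and 1.79 in BEC, 41.5-fold higher, and was not well above background in FRC. The plasma cell list had no other member past 4-fold among 10 compared. With 2.13% of all genes called higher, a list of this size would hold few calls. At any size 2 of its members were above both others and 5 below both (median -0.09). Its defining genes Jchain and Mzb1 stood at -1.40 and 0.44 in BEC. The part of plasma cells in the Prdm1 level was not tested. Irx3, an Iroquois homeobox gene, was at -1.86, -0.52 and 4.39, 30.0-fold above LEC. Lhx6, a LIM homeobox gene, was 36.5-fold and Dach1 27.1-fold above LEC, but their other probes gave 0.49 and 0.95. Slc26a10, of an anion exchanger family, was 30.6-fold and Abcb1a, the drug efflux pump P-glycoprotein, 28.1-fold above LEC.

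Lower bounds were largest for genes not well above background in FRC or LEC. Ddx4, an RNA helicase of germ cells, was at 2.05 in BEC and at least 75.8-fold higher. Cstl1, a cystatin-like gene, was at least 43.0-fold higher, Nlrp9a, of the NLR family, at least 30.2-fold and Masp1, a protease of the lectin pathway of complement, at least 21.1-fold. Il1rapl2 and Endou were each at least 17.8-fold higher. No other probe of these 6 genes was well above background.

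Transporter genes of endothelium, a list chosen after the data had been seen, had 9 of 27 members higher and 1 lower (median 1.08). Slc14a1, a urea transporter, stood at -1.95 in LEC and 2.49 in BEC, 21.8-fold higher, with 4.50 from its other probe. Slc52a3, a riboflavin transporter, was at -2.57, -1.55 and 2.62, 18.0-fold above LEC. Beside Abcb1a, the efflux pumps Abcg2 and Abcc4 were 5.93-fold and 4.90-fold above LEC. Mfsd2a, a lipid transporter of the blood-brain barrier, was at least 7.13-fold higher, a call lost under normexp. The glucose transporter Slc2a1 was at 3.85, 4.10 and 5.18, 2.12-fold above LEC. The single lower member was the amino acid transporter Slc38a5, at 0.68, 0.39 and -2.62, 8.07-fold below LEC.

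Lipid handling had 7 of 31 members higher and none lower (median 0.14). Scarb1, the HDL receptor, stood at 1.39, 2.33 and 6.38, 16.6-fold above LEC. Pltp, the phospholipid transfer protein, was at -0.23, -2.85 and 2.97, 9.14-fold above FRC. Lipe, the hormone-sensitive lipase, was at -1.32, -0.81 and 2.19, 7.95-fold above LEC, and the others were Gpihbp1, Rbp7, Fabp5 and Mfsd2a, described above. Lpl, the lipase that GPIHBP1 carries, was at 5.51, 2.20 and 2.10, highest in FRC. Adipocyte genes, a list that also holds Lipe, had 3 of 10 compared higher in BEC (Lipe, Cfd and Retn), or 30%. Their median was 1.35 and none was below both others. The summed signal of the adipocyte list was 4.71, 7.36 and 30.6 times the 75th percentile. Retn was just past 4-fold and fell short of it under 5 alternatives (1.65 to 1.99). Of the list's defining genes, Adipoq stood at 0.38, -0.66 and 0.80, Plin1 was highest in FRC at -0.23, and Lep was not well above background on any array; their part in the result was not tested.

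Genes of haemostasis had 4 of 26 members higher and 1 lower (median 0). These are 15.4% and 3.85% of the list, beside 2.13% and 1.64% over all genes. Entpd1, an ectoenzyme that degrades extracellular ATP and ADP, stood at -1.91, -1.90 and 2.75, 25.2-fold above LEC, with 4.38 from its other probe. Nt5e, which acts on its product AMP, was 6.79-fold above FRC and F2rl3, a thrombin receptor, at least 9.66-fold higher, both short of 4-fold under normexp. F3, tissue factor, was lower, at 4.36, -0.98 and -4.23, 9.48-fold below LEC, and also lost its call under normexp (-1.49). The anticoagulants Thbd, at 5.89, 5.21 and 6.44, and Procr, at 2.72, 4.72 and 3.97, did not set BEC apart.

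Among genes that act on vessel tone, 3 of 38 were higher and 1 lower (median 0), counts of a few genes beside the 2.13% and 1.64% over all genes. Ramp3, a subunit of adrenomedullin receptors, was at -2.18, -1.03 and 2.37, 10.5-fold above LEC, and Npr3, a clearance receptor for natriuretic peptides, 6.16-fold above FRC. Ptger4, a prostaglandin receptor, was at 0.19, 0.12 and -2.13, 4.75-fold below LEC. Npr3 and Ptger4 lost their calls under normexp. Nos3, endothelial nitric oxide synthase, was at 3.05 in LEC and 2.82 in BEC and not well above background in FRC. In the VEGF and angiopoietin list, 2 of 20 were higher, Flt1 and Aplnr, and 1 lower. This was the ligand gene Vegfa, at 2.35, 0.89 and -1.62, 5.68-fold below LEC, a call lost under normexp (-1.96). Tek and Tie1, the receptor kinases for angiopoietins, were 2.08-fold and 2.18-fold above LEC.

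Of 31 leukocyte adhesion genes, 4 were higher and none lower (median 0). Esam, an adhesion molecule of endothelial contacts, stood at -1.01, 2.63 and 6.13, 11.2-fold above LEC, Jam2 at 0.64, -0.92 and 3.91, 9.61-fold above FRC, and Mcam at -0.57, 2.57 and 5.37, 6.95-fold above LEC. The fourth was Emcn. Vcam1, a ligand for integrins of lymphocytes, was at 5.76, 5.16 and 3.33, 3.55-fold below LEC, and Icam1 at 3.52, 4.45 and 4.84. Chemokine genes and their scavengers had 2 of 31 higher, Ackr1 and Cx3cl1, and 2 lower. Each is 6.45% of the list, beside 2.13% and 1.64% over all genes. The membrane-bound chemokine Cx3cl1 was 4.22-fold above FRC, but its other probe gave -0.83. The lower genes were Ccl19, at 8.21, 4.47 and 2.42, 4.14-fold below LEC, and Cxcl16, at 3.23, 2.83 and 0.74, 4.26-fold below LEC. Ccl19 fell short of 4-fold with the array median (-1.99), the median of its probes (-1.97) and the spike-in slope (-1.82).

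Basement membrane genes had 6 of 29 members higher (median 0.25). Tinagl1, a matricellular protein, was at -4.29, 0.51 and 3.41, 7.44-fold above LEC, and Bcam, a laminin receptor, at -0.68, 1.17 and 3.67, 5.66-fold above LEC. Col4a2, a chain of collagen IV, was at 3.44, 3.30 and 5.66, 4.64-fold above FRC, and its partner Col4a1 was 2.47-fold above FRC. Col4a2 fell short of 4-fold with the spike-in slope (1.96). Hspg2, perlecan, was 4.01-fold above LEC and fell short under 4 alternatives (1.80 to 1.95). Lama3 was 5.82-fold above FRC and Itga6 4.32-fold above LEC, but their other probes gave -0.06 and 0.48 to 0.51. Junction and caveola genes had 2 of 31 higher (6.45%, beside 2.13% over all genes), Jam2 and Gja5, and none lower (median 0.09). Cldn5 was at 1.62, 8.50 and 7.76 and Cdh5, the endothelial cadherin, at 0.38, 5.76 and 6.83. In the list shared by endothelia, 4 of 25 were higher, Esam, Adgrl4, Clec14a and Cd93, and 20 were above both (median 1.05).

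**Figure D4:**
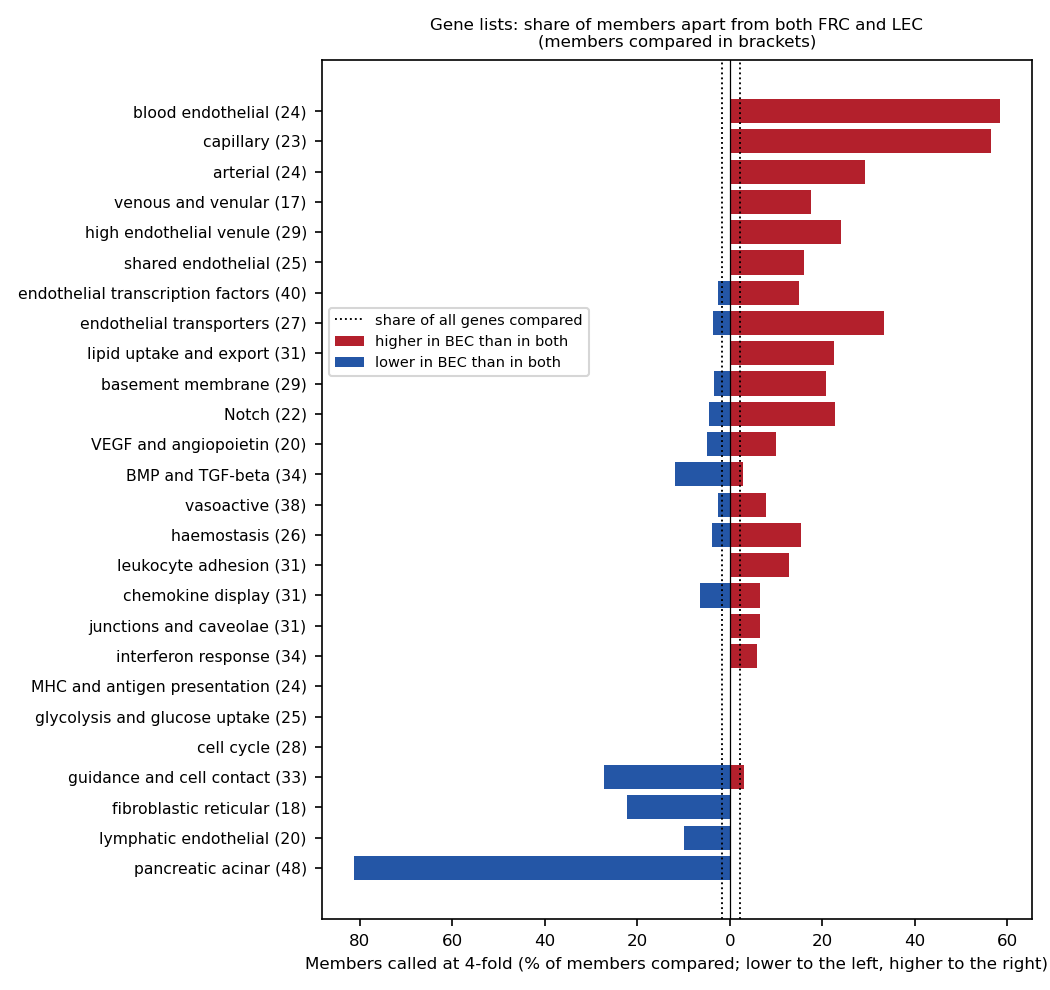
Percent of each list's compared members at least 4-fold higher (right) or lower (left) in BEC than in both FRC and LEC, for 26 lists, with dotted lines at the 2.13% and 1.64% found over all 19137 genes. Blood endothelial and capillary genes have the highest shares on the right (14 of 24 and 13 of 23), and the pancreatic acinar list the highest on the left (39 of 48).

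General cell functions gave few calls, but over all genes 2.13% were higher and 1.64% lower, so lists of this size would hold few. None of 25 genes of glycolysis and glucose uptake (median 0.21), of 24 MHC and antigen presentation genes (median 0.04) or of 28 cell cycle genes (median 0.18) was 4-fold higher or lower. Mki67, the proliferation marker, was at -1.73, 1.13 and 1.77. Interferon-response genes had 2 of 34 higher (median 0.35), Rsad2, an antiviral enzyme, at -1.19, 0.44 and 3.86 (10.67-fold above LEC), and Ly6c1 at 5.17, 2.55 and 7.35 (4.54-fold above FRC, and 1.70 on the log2 scale with the spike-in slope). Immediate early genes, which also respond to tissue dissociation, had 1 of 26 higher, Egr3 (9.81-fold above FRC, with 0.27 from its other probe), with 21 above both and a median of 0.69. Nr4a1 was 3.83-fold, Ier2 2.98-fold and Fos 1.73-fold above the nearer population.

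The genes lower in BEC than in both others included mesenchymal factors and secreted matrix proteins. Prrx2, a homeobox gene of mesenchyme, stood at 1.90, 1.90 and -2.59, 22.3-fold below LEC. Serpina3n, a secreted protease inhibitor, was at 1.16, 1.52 and -3.08, 18.8-fold below FRC. Dnajc6, auxilin, was 18.0-fold below FRC. Postn, the matrix protein periostin, was at 6.45, 4.91 and 0.84, 16.8-fold below LEC, with its probe on chromosome 3 at 54194483 to 54194542 of mm9. Cpxm1, a carboxypeptidase-like secreted protein, was at 4.77, 2.92 and -0.91, 14.2-fold below LEC. Igsf3 was 15.2-fold below LEC, and Adra1b, an adrenergic receptor, 13.4-fold below FRC.

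Further large differences were Tspan33 (12.7-fold below FRC), Pla2g5, a secreted phospholipase (12.4-fold below LEC), and Gatm, Amy2a4 and Aqp12, given with the pancreatic list. The largest bounds were Bmp2k, a kinase (at least 18.7-fold), Fgf10, a growth factor of mesenchyme (at least 18.3-fold), Prr16 (at least 17.7-fold), Vwc2 (at least 15.1-fold), Tenm4 (at least 15-fold) and Pcdh15 (at least 14.4-fold). All 6 were dim in BEC. Other probes of Bmp2k gave -1.04 to -0.71 and those of Tenm4 -1.45 to 0.29, and Vwc2 and Pcdh15 lost their calls under normexp.

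Guidance and cell contact genes, a list chosen after the data had been seen, had 9 of 33 members lower and 1 higher, Sema3g. That is 27.3% and 3.03% of the list, beside 1.64% and 2.13% over all genes. The list as a whole was mixed, with 17 members below both others, 10 above both and a median of -0.005. Slit2, a secreted repellent for axons and migrating cells, stood at 1.32, 0.72 and -3.34, 16.7-fold below LEC, with -3.49 to -0.41 from 2 other probes. Unc5c, a netrin receptor, was at 1.35, 1.49 and -2.62, 15.6-fold below FRC. Flrt2 and Flrt3, ligands of UNC5 receptors, were at 3.17, 3.22 and -0.41 and at 3.18, 3.98 and -0.34, 11.9-fold and 11.5-fold below FRC. Tenm3, a teneurin, was 10.8-fold below LEC. Nrcam was 10.98-fold below LEC, but its other probes gave -0.33 to -0.18, and Ngfr, a neurotrophin receptor, 9.07-fold, with -0.66 from its other probe. Ptprd was 9.87-fold below LEC and fell short of 4-fold under normexp (-1.75). For Slit2, Unc5c, Flrt2, Flrt3 and Nrcam the FRC and LEC levels lay within 1 log2 unit of each other, and BEC alone was low. Of the Schwann and neural markers, 1 of 8 compared was lower, Erbb3, and its other probe gave 1.04.

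Most FRC genes were lower in BEC than in both others, and a few of them, as of the LEC genes, by at least 4-fold. Of 18 FRC genes, 15 were below both others and 4 past 4-fold (median -1.51). These were Dcn, decorin, at 9.87, 6.32 and 3.54 (6.84-fold below LEC, with -0.18 from its other probe), Grem1, a BMP antagonist not well above background in BEC (at least 8.19-fold), Ccl19, whose call was lost under 3 alternatives as above, and Pdpn. Collagens stopped short: Col1a2 was at 9.17, 4.51 and 2.67, 3.59-fold below LEC, and Col3a1 2.83-fold. Of 20 LEC genes, 2 were 4-fold lower in BEC than in both: Pdpn and Maf, a transcription factor, at 3.99, 5.71 and 0.64 (10.2-fold below FRC, with -2.77 to -1.07 from other probes). Most LEC genes put BEC between the others, as Prox1 at -3.56, 3.53 and -0.51 and Lyve1 at -0.94, 6.87 and 3.09.

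BMP and TGF-beta genes had 4 of 34 members lower and 1 higher, Id1 (median 0). These are 11.8% and 2.94% of the list, beside 1.64% and 2.13% over all genes. Beside Grem1 the lower ones were Chrdl1, another BMP antagonist, at 3.69 and -0.95 in FRC and LEC and at least 10.74-fold lower in BEC, Gdf10, at 4.83, 5.10 and 2.23 (6.07-fold below FRC), and Ltbp1, which holds latent TGF-beta (4.21-fold below LEC, with 0.25 from its other probe). Grem1, Chrdl1 and Ltbp1 lost their calls under normexp. The receptor genes Acvrl1 and Eng were 2.71-fold and 3.17-fold above the nearer population. Complement genes, a list chosen after the data had been seen, had 2 of 16 lower and 2 higher, each 12.5% of the list. At any size 8 were below both others and 3 above both (median -0.13). C3, the central component, stood at 9.31, 7.73 and 4.29, 10.9-fold below LEC, and C2, a convertase subunit, at 5.89, 5.54 and 1.98, 11.8-fold below LEC. The higher ones were Cfd and Masp1. The Masp1 difference is a lower bound, and none of the other probes among its 4 was well above background.

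Pancreatic enzyme genes gave the most lower calls of any list. Of 48 genes in a pancreatic acinar list chosen after the data had been seen, 39 were at least 4-fold lower in BEC than in both others and none higher (median -2.75), so that 274 lower genes were outside the list. All 48 were well above background on every array, BEC included. Cela1, an elastase, stood at 8.54, 8.46 and 5.18, 9.73-fold below LEC, and Cpb1, a carboxypeptidase, at 8.91, 8.69 and 5.91, 6.90-fold below LEC. Gatm, an enzyme of creatine synthesis, was 12.8-fold and the water channel gene Aqp12 12.1-fold below LEC. The summed signal of the list was 8694, 9161 and 1598 times the 75th percentile. Members of the trypsin and amylase families are near-identical and their values are uncertain gene by gene: Amy2a4 was 13.4-fold below LEC and Amy1 1.92-fold below FRC. The acinar transcription factor genes Ptf1a, at -1.56, -1.41 and -3.51, and Bhlha15, at -2.34, -1.45 and -0.86, were not past 4-fold. Of 6 islet genes compared, Ppy was lower and Chga higher, and Ins1 and Pdx1 were not well above background on any array. The part of pancreatic RNA in the other genes lower in BEC was not tested.

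**Figure D5:**
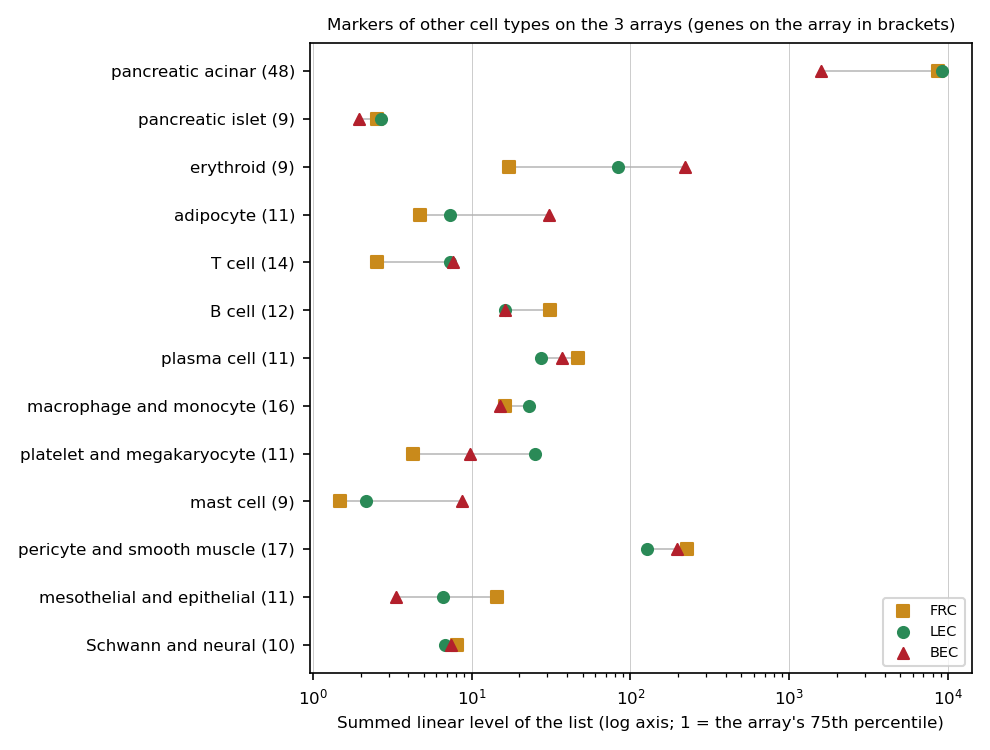
Summed signal of 13 marker lists on the FRC, LEC and BEC arrays, in multiples of the array's 75th percentile on a log axis. The pancreatic acinar sum is lowest in BEC (1598 against 8694 and 9161), and the erythroid, adipocyte and mast cell sums are highest there. The T cell sum is also highest in BEC, by a small margin over LEC (7.63 against 7.28).

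Markers of other cell types that a stromal sort could carry were read in the same way, and their part in the results was not tested. The share of a list past 4-fold above both others was 15.4% for T cell, 20% for B cell, 14.3% for mast cell and 10% for platelet genes, beside 2.13% over all genes, from 1 or 2 genes a list. Erythroid genes had none of 5 past 4-fold, but their median difference was 1.33 and their summed signal was 17.3, 83.7 and 222, most of it from the haemoglobin genes, and Ahsp and Epb42 were not well above background on any array. T cell genes had 2 of 13 higher, Cd3d (4.53-fold above LEC) and Il7r (5.10-fold above FRC), and 10 of the 13 were above both (median 0.94), with sums of 2.55, 7.28 and 7.63. Cd3e, the single member below both, stood at -0.55, -0.73 and -1.12. B cell genes had 2 of 10 higher, Cd79a and Fcmr, and 1 lower, Spib at 2.96, 3.13 and -0.45, a median of 0.27 and sums of 31.1, 16.2 and 16.3, and Pax5 was not well above background on any array. The calls of Cd3d, Il7r, Cd79a and Fcmr were lost under normexp. Pericyte and smooth muscle genes had 2 of 17 higher, Higd1b and Mcam, and 1 lower, Rgs5 (sums 227, 128 and 196). Higd1b and Rgs5 fell short under normexp (1.60 and -1.90), and Rgs5 also with the median of its probes (-0.66). Macrophage genes had none of 14 past 4-fold (sums 16.1, 23.1 and 15.1), and platelet genes 1 of 10, Ppbp (sums 4.30, 25.0 and 9.74), a call lost under normexp (0.88). Mast cell genes had 1 of 7 higher, the receptor gene Kit, with a median of 0.82 and sums of 1.48, 2.15 and 8.74, and the tryptase gene Tpsab1 was not well above background on any array. Mesothelial and epithelial genes had 2 of 11 lower, Krt8 and Lrrn4, both short of 4-fold under normexp, with sums of 14.4, 6.58 and 3.36, and Msln, mesothelin, stood at 1.17, 0.28 and -1.40.

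Set beside the other populations by the same rule, BEC held a middle place in number. LEC was at least 4-fold above both others for 198 genes (1.03%) and below both for 103 (0.538%), and FRC for 861 (4.5%) and 578 (3.02%). These comparisons share the same 3 arrays and are not independent of each other.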

How the data were processed

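RNA of 3 sorted populations was hybridised to 1 single-colour Agilent array each, all on 1 slide per the file headers. Each deposited scanner file lists the intensity of 43379 non-control spots. The submitters' processing notes name Agilent Feature Extraction 10.7.3.1, and per the file headers the processed intensity was background-subtracted and detrended within each array. The deposited series matrix holds intensity values by the authors, linear and quantile-normalised as judged from the values, and was used as an alternative. Probe positions are those of the files, on mm9 per the file headers.

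Without spots marked as outliers 18 probes dropped out, and averaging replicate spots gave 41156 probes. Each log2 value, computed from the deposited intensity, is relative to the 75th percentile of its array. Per the file headers, spike-in slopes differed between arrays (FRC 0.821, LEC 1.00, BEC 0.919), so a log2 unit need not mean the same change in RNA on each. Gene names were updated through RefSeq accessions in a table of GRCm38.p6, which served for names and promoters alone: 26792 probes matched, 2271 of 28095 names changed, and 19585 of 28072 gene names were found in it. The probe with the highest mean represents a gene, and 8744 genes had several. A gene was compared if this probe was well above background on any array. The difference to the nearer population is BEC minus the higher of FRC and LEC where BEC was above both, BEC minus the lower where it was below both, and 0 between them. Calls were made at 4-fold. A higher call needed BEC well above background, and a lower call needed both FRC and LEC well above background. The named genes were, per direction, the 14 largest measured differences, the 6 largest bounds, 3 genes on either side of the threshold, and members of 39 lists.

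The members and lists were chosen with earlier results of these data known. A further 5 lists (pancreatic acinar and islet, guidance and cell contact, complement, endothelial transporters) and the promoter strings were chosen with these data in view. The steps were tested on simulated data. With 1 array per population, the number of arrays limits the precision and no test was made. Python 3.11.15 with numpy 2.4.6, pandas 2.3.3 and matplotlib 3.10.9, and R 4.3.3 with limma 3.58.1 (normexp, offset 50) were used. Alternatives were other scalings, background corrections, filters, probe rules and thresholds. Some results are not reported here.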

Additional observations from a re-analysis of the deposited data

How the results depend on the processing

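The counts of 408 higher and 313 lower genes moved by over 1.5 times under some alternatives. With normexp background correction 211 were higher (209 of them among the 408) and 134 lower (132 among the 313). Without a filter on dim probes 559 were higher and 533 lower, and the median BEC minus LEC difference over all genes shifted by -0.13. At 2-fold the counts were 1258 and 1128, and at 8-fold 174 and 75. Under the other scalings and probe rules and the authors' series matrix, they ranged from 349 to 425 higher and from 219 to 330 lower. Dividing by the spike-in slope, an alternative added after seeing the data, gave 452 and 383, and leaving out the pancreatic acinar list, also added, 274 lower. Of 178 named genes past 4-fold, 38 fell short under normexp and 17 with the median of a gene's probes. With quantile normalisation, the series matrix and the spike-in slope 7 each fell short. A total of 123 were past 4-fold under every alternative that was applied to single genes. The rule that every probe must pass was not applied to them, and some, such as Mypn, have another probe short of 4-fold. Erbb3 reversed, to 0.14, with the median of its probes. The cause of these changes was not tested. No paired analysis was possible because each population has 1 array, and leaving out a replicate could not be done for the same reason.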

Other observations

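The genes in the paragraphs below were chosen after their values were seen, from those at least 4-fold apart from both other populations. Some homeobox genes were higher in BEC, while others such as Prrx2 were lower. Emx2 stood at -3.46, -3.89 and 1.03 on the FRC, LEC and BEC arrays, 22.5-fold above FRC, and Lhx2 was 5.65-fold above LEC. Hox genes were among them: Hoxb9 was 11.1-fold above LEC, with 2.17 from its other probe, Hoxa2 6.49-fold above FRC and Hoxb5 5.23-fold above FRC. Secreted and surface factors were among the higher genes too. Csf3, the granulocyte colony-stimulating factor, was at -3.03 in LEC and 1.18 in BEC, 18.5-fold higher. Kitl, the ligand of KIT, was at 0.40, 0.01 and 2.93, 5.79-fold above FRC, and the growth factor Hbegf 7.66-fold above LEC. Ptgds, a prostaglandin D synthase, was 12.3-fold above LEC. Ass1, which recycles citrulline to arginine, was 12.2-fold and Gch1, which starts synthesis of the nitric oxide synthase cofactor, 5.27-fold above LEC. Ceacam1, an adhesion molecule with a near-identical paralogue, was 23.6-fold and Col13a1, a transmembrane collagen, 23.4-fold above LEC.

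Matrix remodelling and Wnt genes were among the lower ones. Timp2, a metalloproteinase inhibitor, stood at 8.07, 7.22 and 3.77, 10.9-fold below LEC, and Mmp14, a membrane metalloproteinase, at 5.63, 5.11 and 2.45, 6.35-fold below LEC. Fn1, fibronectin, was 5.21-fold and Loxl2, a collagen crosslinking enzyme, 8.29-fold below LEC, with other probes on the same side. The Wnt antagonists Sfrp1 and Sfrp2 were 10.4-fold and 7.40-fold below LEC, but the other Sfrp1 probe gave -0.18, and the ligand gene Wnt11 was 8.22-fold below LEC. Il33, an alarmin of stromal cells, was at 4.89, 4.80 and 1.74, 8.38-fold below LEC. Cyp1b1 stood at 4.85, 6.13 and 1.48, 10.3-fold below FRC, and Ptgs2, an inducible cyclooxygenase, was 6.09-fold below LEC.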
